A study of Mus musculus with 14 samples.

Results

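The genes described are 7 subunits of the GABA-A receptor, Gabra2, Gabra3, Gabra5, Gabrb1, Gabrb2, Gabrg1 and Gabrg3, chosen by symbol from the 16703 genes measured in mouse spinal cord by RNA-seq. All 7 were present in the table, whose values are log2 CPM, read counts scaled to the size of the library, with a small prior added before the log. Ovariectomized female and castrated male C57Bl/6 mice, 9 to 10 weeks old when their acclimatization began, developed experimental autoimmune encephalomyelitis (EAE) after immunization with a myelin oligodendrocyte glycoprotein peptide in complete Freund's adjuvant. From the onset of symptoms they received dihydrotestosterone (DHT), a non-aromatizable androgen, at 0.04 mg per day, or the vehicle, by the intranasal route for 8 days. Gonadectomy and EAE were common to all 4 groups, with no healthy and no intact animals among the libraries analysed here. The 14 libraries were 4 vehicle and 3 DHT libraries of each sex, while the methods give 4 animals per group. Each library is named by the number in its column, a number that the sample labels do not tie to an animal, so p-values measure the spread between libraries. Females and males came from separate datasets, and sex and dataset cannot be told apart.

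GABA-A receptors are chloride channels built of several subunits around a central pore, most often of the alpha, beta and gamma classes. GABA binds between a beta and an alpha subunit, and benzodiazepines bind between an alpha and a gamma subunit. In the adult cord these receptors act beside glycine receptors to inhibit motor neurons and dorsal horn circuits. The alpha subunit largely sets where a receptor sits and how it responds: Gabra2 and Gabra3 are typical of synaptic receptors, and Gabra5 of extrasynaptic ones that carry a tonic current. Gabrb1 and Gabrg1 mRNAs are also known from astrocytes of the mouse brain.

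Several of these genes lie in clusters of the mouse genome (GRCm38, GENCODE M21 gene spans). On chromosome 5, Gabrg1 (chr5:70751047-70842617, minus strand), Gabra2 (chr5:70957597-71095849, minus) and Gabrb1 (chr5:71658113-72149037, plus) share a cluster with Gabra4, whose span overlaps the first 196 bases of Gabrb1 on the other strand. On chromosome 7, Gabrg3 (chr7:56716465-57387188, minus) ends 20.5 kb before Gabra5 (chr7:57407672-57510059, minus). Gabrb2 lies on chromosome 11 (chr11:42419757-42629028, plus) and Gabra3 on the X chromosome (chrX:72432681-72656848, minus). Only 2 sequences of 30 bases were shared between transcripts of a described subunit and another subunit of the family, between Gabra2 and Gabrg3, and none of 50 bases. Of the exon bases, 46 in Gabrb1 overlapped Gabra4 and 148 in Gabra5 an antisense transcript, Gm9962. The kit kept strand, but whether the counting used it is not given in the sources used here, so reads from those bases cannot be assigned with certainty.

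Promoter windows were available for all 7 genes (RefSeq, GRCm38.p6), each of 300 bases that run from upstream to just past an annotated transcript start. Of the 11 windows, 3 held TGTTCT or its reverse complement AGAACA, the half-site of the androgen and glucocorticoid receptors, 2 of them at different starts of Gabrb2 and 1 at Gabrg1. Such a half-site was present in 19.0% of the 32851 windows of all genes. The full element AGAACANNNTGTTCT was in no window of these 7 genes and in 0.00913% of all windows. A match is a description of the letters and not of receptor binding. A single window is shown for each of Gabrb2, which had the largest fold change of the 7 in both sexes, and Gabrg1, which holds a half-site. The same is done for Gabrb1, which starts head to head with Gabra4, and for Gabra3 on the X chromosome. Other starts of Gabrb2, Gabrb1 and Gabra3 have windows that are not shown, among them the second Gabrb2 window with a half-site. Each is given 5′ to 3′ on the strand of its gene, with half-sites in capitals.
Gabrb2, chr11:42420190-42420489, plus strand: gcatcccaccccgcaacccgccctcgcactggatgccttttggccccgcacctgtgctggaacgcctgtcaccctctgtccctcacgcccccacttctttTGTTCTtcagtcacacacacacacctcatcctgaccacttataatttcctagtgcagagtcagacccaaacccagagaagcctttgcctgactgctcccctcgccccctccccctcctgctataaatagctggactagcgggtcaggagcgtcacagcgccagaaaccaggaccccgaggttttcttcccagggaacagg
Gabrg1, chr5:70842568-70842867, minus strand: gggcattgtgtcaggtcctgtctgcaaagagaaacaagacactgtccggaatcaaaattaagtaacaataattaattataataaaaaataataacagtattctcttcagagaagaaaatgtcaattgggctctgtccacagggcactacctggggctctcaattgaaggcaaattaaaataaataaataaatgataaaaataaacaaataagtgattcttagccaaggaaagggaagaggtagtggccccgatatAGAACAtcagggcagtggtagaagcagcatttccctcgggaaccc
Gabrb1, chr5:71657671-71657970, plus strand: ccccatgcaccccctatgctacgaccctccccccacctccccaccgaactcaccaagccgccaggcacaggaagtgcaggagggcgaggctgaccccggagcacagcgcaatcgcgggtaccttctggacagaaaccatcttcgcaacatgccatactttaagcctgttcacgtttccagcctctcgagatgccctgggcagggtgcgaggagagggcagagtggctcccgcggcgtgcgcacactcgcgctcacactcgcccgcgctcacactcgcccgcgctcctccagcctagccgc
Gabra3, chrX:72656758-72657057, minus strand: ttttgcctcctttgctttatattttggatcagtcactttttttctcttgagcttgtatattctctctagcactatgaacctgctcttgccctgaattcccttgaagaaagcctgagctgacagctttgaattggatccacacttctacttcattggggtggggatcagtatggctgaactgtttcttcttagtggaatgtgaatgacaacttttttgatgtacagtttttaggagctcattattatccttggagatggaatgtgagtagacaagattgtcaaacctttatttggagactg
The half-site starts at base 101 of the Gabrb2 window and at base 256 of the Gabrg1 window. The windows shown differ in composition, since that of Gabrb1 has 66.0% G and C with 25 CpG dinucleotides, Gabrb2 59.0% with 11, Gabra3 39.3% with 0 and Gabrg1 38.3% with 3, beside medians of 52.7% and 7 over all windows. Windows of the same gene differ as well: the other Gabrb1 window has 50.3% with 9, and the other Gabrb2 windows have 54.7% and 41.0% with 9 each. Which starts were in use was not measured.

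Reads were recovered from the deposited values, which hold the authors' normalization, and may therefore differ from the reads sequenced. They summed to 29311155 to 35761972 per library, and the 7 genes had 251 to 5173 recovered reads each per library. Hoxa7, Hoxc8, Hoxc9 and Hoxc10, position genes that mark the cord, summed to 134 to 165 CPM in female vehicle, 173 to 221 in female DHT, 140 to 162 in male vehicle and 161 to 179 in male DHT libraries, and the 3 forebrain markers of the list were not among the genes measured. In 2 libraries, sex-linked genes did not follow the labels: male DHT 3 had a log2 CPM of 7.41 for Xist and -2.98 for Ddx3y, and female vehicle 3 had 3.04 and 0.77. The deposited values also lacked nearly all variation in one direction across libraries, which fell 62.6% on male DHT 3 and 23.9% on female vehicle 3 by squared weight. The subunit tests, most list counts and the correlations are therefore also given without the library they rest on.

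Compared as CPM per kilobase of exon, which allows for gene length, Gabra3 was the most abundant of the 7 in each of the 4 groups. In female vehicle libraries its mean was 20.2 ± 3.13 CPM per kb (SD, n = 4). Gabra5 followed at 11.3 ± 1.72, then Gabrb1 at 6.50 ± 0.881, Gabra2 at 4.91 ± 0.979, Gabrg1 at 3.05 ± 0.348, Gabrb2 at 2.58 ± 0.666 and Gabrg3 at 1.34 ± 0.144 (SD, n = 4 each). The neighbours Gabrg1 and Gabrb2 differed by less than 1 SD, and they changed places in the DHT libraries of both sexes, at 4.61 ± 0.837 and 4.98 ± 0.775 in females and 3.11 ± 0.630 and 3.25 ± 0.552 in males (SD, n = 3). Gabra3 and Gabra5 thus stood above the beta and gamma subunits in every group. Exon length was taken over all annotated isoforms.

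With DHT, all 7 subunit mRNAs rose in females, by 1.46-fold for Gabrb1 to 1.96-fold for Gabrb2 (limma on the log2 values, Benjamini-Hochberg adjusted p over all genes, called under 0.05). Over all genes, 19.8% were called higher and 27.3% lower in that comparison. The median log2 fold change of the 7 was 0.70, beside -0.02 over all genes. For each of the 7, the 3 DHT libraries lay above the 4 vehicle libraries, a pattern found for 19.0% of all genes. In males, 4 of the 7 rose, where 12.1% of all genes were called higher and 10.7% lower, and the median was 0.44, beside -0.00434 over all genes. The 3 male DHT libraries lay above the 4 male vehicle libraries for 5 of the 7, all but Gabrb1 and Gabrg1, as they did for 18.5% of all genes.

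Among the alpha subunits, Gabra2 read 43.1, 31.1, 44.9 and 31.0 CPM in female vehicle 1 to 4, against 87.8, 74.4 and 47.7 CPM in female DHT 1 to 3. The DHT libraries were all higher, but female DHT 3 stood only just above the highest vehicle library. The log2 fold change was 0.87 ± 0.21 (SE), with adjusted p = 0.00635 by limma. In males Gabra2 read 31.4, 30.3, 29.9 and 28.3 CPM in vehicle 1 to 4 and 33.4, 51.8 and 39.2 CPM in DHT 2 to 4. The male groups did not overlap either, with male DHT 3 well above the rest, but the log2 fold change of 0.44 ± 0.21 did not pass the test (limma adjusted p = 0.136, 95% confidence interval -0.00469 to 0.89). Without male DHT 3 it was 0.27.

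Gabra3 read 73.8, 90.0, 89.0 and 64.7 CPM in female vehicle 1 to 4 and 147, 137 and 103 CPM in female DHT 1 to 3. In males it read 67.5, 64.9, 69.3 and 59.7 CPM in vehicle 1 to 4 and 81.1, 102 and 89.8 CPM in DHT 2 to 4. In both sexes every DHT library was above every vehicle library of that sex. Log2 fold changes were 0.70 ± 0.14 in females and 0.47 ± 0.14 in males (SE, limma adjusted p = 0.00478 and 0.0295). Without male DHT 3 the male value was 0.39, with adjusted p = 0.129.

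Gabra5, typical of extrasynaptic receptors, read 31.7, 37.5, 37.8 and 27.2 CPM in female vehicle 1 to 4 and 59.7, 58.9 and 46.7 CPM in female DHT 1 to 3. In males it read 29.7, 30.7, 32.6 and 25.5 CPM in vehicle 1 to 4 and 39.3, 42.7 and 40.6 CPM in DHT 2 to 4. The groups were separate in both sexes, and the 3 male DHT libraries lay close together. Its log2 fold change was 0.72 ± 0.13 in females and 0.47 ± 0.13 in males (SE, limma adjusted p = 0.00478 and 0.0217). Without male DHT 3 the male value was 0.44, with adjusted p = 0.0837, so for this gene the estimate moved little while the call was lost.

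Of the beta subunits, Gabrb2 read 12.9, 19.4, 20.7 and 12.7 CPM in female vehicle 1 to 4 and 35.3, 33.8 and 26.1 CPM in female DHT 1 to 3. In males it read 9.49, 13.4, 16.8 and 8.12 CPM in vehicle 1 to 4 and 19.8, 24.5 and 17.7 CPM in DHT 2 to 4. Its groups did not overlap in either sex, though its vehicle libraries were spread over a wider range, relative to their level, than those of the other 6 genes. On the log2 scale the change was 0.97 ± 0.25 in females and 0.83 ± 0.25 in males (SE, limma adjusted p = 0.00917 and 0.0342). Without male DHT 3 the male value was 0.70, with adjusted p = 0.137.

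Gabrb1 read 83.2, 86.4, 108 and 82.0 CPM in female vehicle 1 to 4 and 142, 143 and 108 CPM in female DHT 1 to 3. Female vehicle 3 reached the level of female DHT 3, which was higher by only 0.00112 on the log2 scale. In males Gabrb1 read 101, 83.6, 87.6 and 95.7 CPM in vehicle 1 to 4 and 92.8, 113 and 90.6 CPM in DHT 2 to 4, so that the groups overlapped and male DHT 3 alone exceeded all vehicle libraries. The female log2 fold change was 0.54 ± 0.13 (SE, limma adjusted p = 0.00603) and the male one 0.10 ± 0.13 (adjusted p = 0.599, 95% confidence interval -0.17 to 0.37). Without male DHT 3 the male value was 0.000555.

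Of the gamma subunits, Gabrg1 read 23.7, 21.2, 27.8 and 23.4 CPM in female vehicle 1 to 4 and 42.4, 37.2 and 29.3 CPM in female DHT 1 to 3. In males it read 23.7, 21.0, 23.7 and 24.4 CPM in vehicle 1 to 4 and 22.8, 30.1 and 20.6 CPM in DHT 2 to 4. The female groups were separate, whereas in males 1 DHT library was the highest and another the lowest of the 7. The log2 fold change was 0.59 ± 0.14 in females (SE, limma adjusted p = 0.00741) and 0.06 ± 0.14 in males (adjusted p = 0.790, 95% confidence interval -0.25 to 0.38), and without male DHT 3 the male value was -0.10.

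Gabrg3 read 16.6, 17.4, 16.5 and 13.5 CPM in female vehicle 1 to 4 and 26.9, 28.5 and 19.9 CPM in female DHT 1 to 3. In males it read 14.5, 11.9, 14.8 and 12.2 CPM in vehicle 1 to 4 and 17.6, 20.2 and 16.5 CPM in DHT 2 to 4. The groups were separate in both sexes. The log2 fold change was 0.64 ± 0.14 in females and 0.44 ± 0.14 in males (SE, limma adjusted p = 0.00514 and 0.0383), and without male DHT 3 the male value was 0.36, with adjusted p = 0.153.

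**Figure D1:**
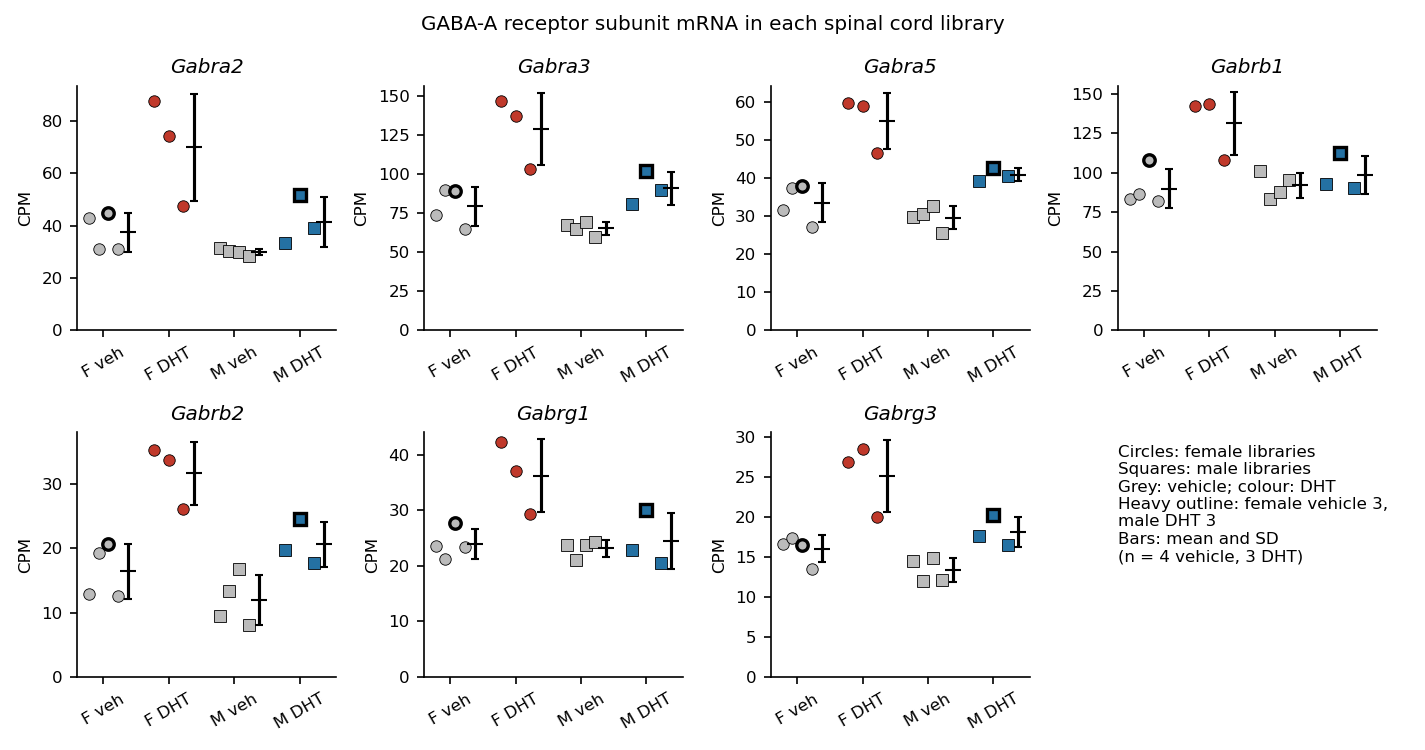
CPM of the 7 GABA-A subunit genes in each of the 14 libraries, by sex and treatment, with the mean and SD beside each group (n = 4 vehicle, 3 DHT). In females the 3 DHT libraries lie above the 4 vehicle libraries for all 7 genes, in males for 5 of the 7, while for Gabrb1 and Gabrg1 only male DHT 3 does.

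All 7 genes kept their call in females when any single library was left out, and when the pair of female vehicle 3 and male DHT 3 was. Without female vehicle 3 the female values were 0.97 for Gabra2, 0.76 for Gabra3, 0.78 for Gabra5, 0.63 for Gabrb1, 1.09 for Gabrb2, 0.66 for Gabrg1 and 0.65 for Gabrg3 on the log2 scale, each above the value with it. The male count was far less stable. It was 0 of 7 without male DHT 3 or male vehicle 4, 1 without male vehicle 1 and 2 without male vehicle 2, male DHT 2 or male DHT 4. The share of all genes called higher in males, 12.1% with every library, fell in each of these fits as well. It was 3.27% without male DHT 3. Leaving out a vehicle library of the males gave 5.52% for number 4, 7.96% for number 1 and 8.58% for number 2. For DHT libraries 2 and 4 of that sex the shares were 10.5% and 9.03%. The male estimates without male DHT 3 ranged from -0.10 for Gabrg1 to 0.70 for Gabrb2, with a median of 0.36.

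The question whether DHT acted differently in the 2 sexes was addressed by the interaction of sex and DHT, called by limma for none of the 7, where 1.86% of all genes were called. At an unadjusted p under 0.05 the count was 2, and with limma's voom on the recovered reads 0 were called. Those 2 were Gabrg1, whose female change exceeded the male one by 0.52 ± 0.20 on the log2 scale (SE, limma adjusted p = 0.131), and Gabrb1, by 0.44 ± 0.18 (adjusted p = 0.140). The smallest difference was that of Gabrb2, at 0.14 with a 95% confidence interval from -0.64 to 0.91. Without female DHT 3, the DHT library with the lowest member levels in females, Gabrg1 and Gabrb1 were called (adjusted p = 0.0233 and 0.0220), where 25.4% of all genes were called. Without male DHT 3 the 7 differences ran from 0.27 for Gabrb2 to 0.68 for Gabrg1, with a lowest limma adjusted p of 0.0982, for Gabrg1. Being called in females but not in males, as Gabra2, Gabrb1 and Gabrg1 were, therefore does not show a difference between the sexes. These 3 are the described genes of the chromosome 5 cluster, a grouping noticed after their values were seen.

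**Figure D2:**
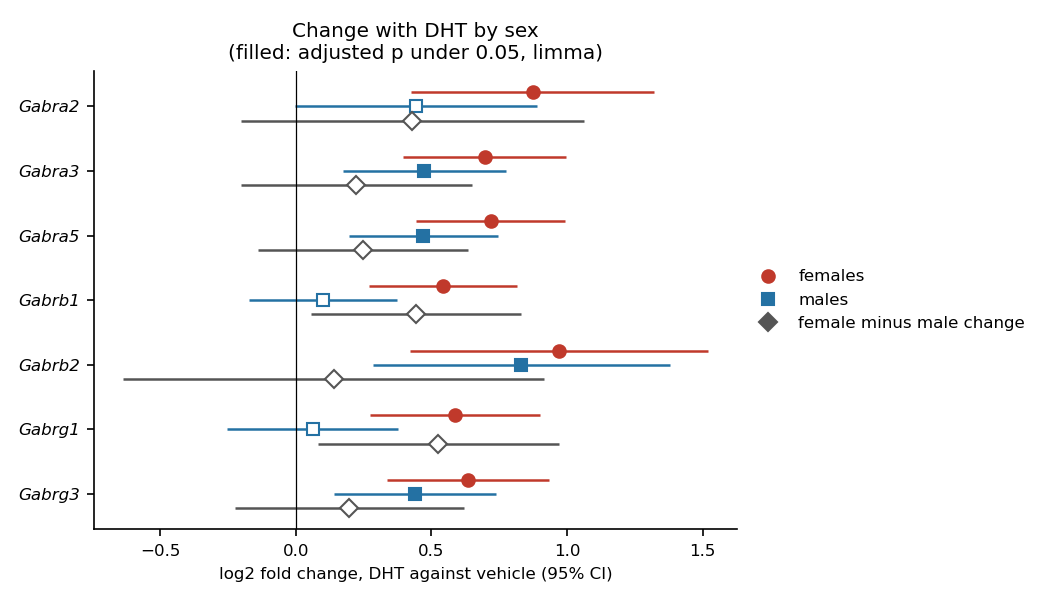
Log2 fold change with DHT in females and in males and the difference between them, with 95% confidence intervals, for the 7 genes. All 7 female values are called, 4 male values are called, and no difference between the sexes is.

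Before treatment effects are considered, the vehicle groups of the 2 sexes can be set side by side. None of the 7 genes was called between female and male vehicle libraries, where 12.7% of all genes were (limma, lowest adjusted p = 0.180, for Gabra3). At an unadjusted p under 0.05 the count was 0, and voom called 0. The differences on the log2 scale ran from -0.04 for Gabrb1 to 0.48 for Gabrb2, female minus male.

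The rise of the 7 subunits went with a rise of neuron markers. Of 10 neuron markers, 9 rose and none fell in females, with a median log2 fold change of 0.51, and 3 rose in males, with a median of 0.29 (2 without male DHT 3). The summed level of the list was 5288 to 7201 CPM in female vehicle, 7493 to 9637 in female DHT, 5209 to 5839 in male vehicle and 6957 to 7378 in male DHT libraries, so the groups of each sex did not overlap. Snap25, a protein of synaptic vesicle release, rose by 0.66 in females and 0.61 in males on the log2 scale, and Tubb3, a neuronal tubulin, had values of -0.00432 and 0.09 that did not pass the test. All 5 markers of inhibitory neurons rose in females and 2 of 5 in males (0 without male DHT 3), with medians of 0.61 and 0.42. Of 5 markers of excitatory neurons, 3 rose in females and 1 in males, with medians of 0.65 and 0.16, so the female rise was not confined to inhibitory markers. Counts without single libraries are not given for the excitatory list. Fewer cells of a type and less RNA per cell cannot be told apart in bulk tissue.

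Other cell types moved too. All 8 markers of microglia and macrophages fell in females, where their summed level was 880 to 1863 CPM in vehicle and 191 to 851 CPM in DHT libraries, and 2 of 8 fell in males (1 without male DHT 3), with 1811 to 2581 and 695 to 1146 CPM. All 7 T cell markers fell in females and none in males, and 4 of 5 neutrophil markers fell in females, with a median of -2.59, and none in males. Of 5 endothelial markers, 3 fell in females and 2 in males (1 without male DHT 3). Female DHT 3, which had the lowest values of the 7 subunits among female DHT libraries, had the highest microglia and macrophage and T cell levels of the 3. Of 7 astrocyte markers, 2 rose and 2 fell in females and 1 fell in males (0 without male DHT 3), with summed levels of 7857 to 10865 CPM in female vehicle and 7701 to 10249 CPM in female DHT libraries. No marker of these lists was at 0 in all libraries of a group. Of 7 oligodendrocyte markers, 3 rose in females, where they summed to 9351 to 10810 CPM in vehicle and 11730 to 13438 CPM in DHT libraries, and 1 rose in males, with or without male DHT 3. The cord Hox genes shifted as well, with 3 of 4 called higher in females and none in males. Of 5 motor neuron markers, 4 rose in females and none in males. Without female vehicle 3 the female counts were 9 of 10 for neurons, 5 of 5 for inhibitory and 4 of 5 for motor neurons, 8 of 8 for microglia and macrophages, 7 of 7 for T cells, 4 of 5 for neutrophils, 4 of 7 for oligodendrocytes and 1 up and 1 down for astrocytes. The part of these shifts in the subunit values was not tested beyond the scalings given next.

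**Figure D3:**
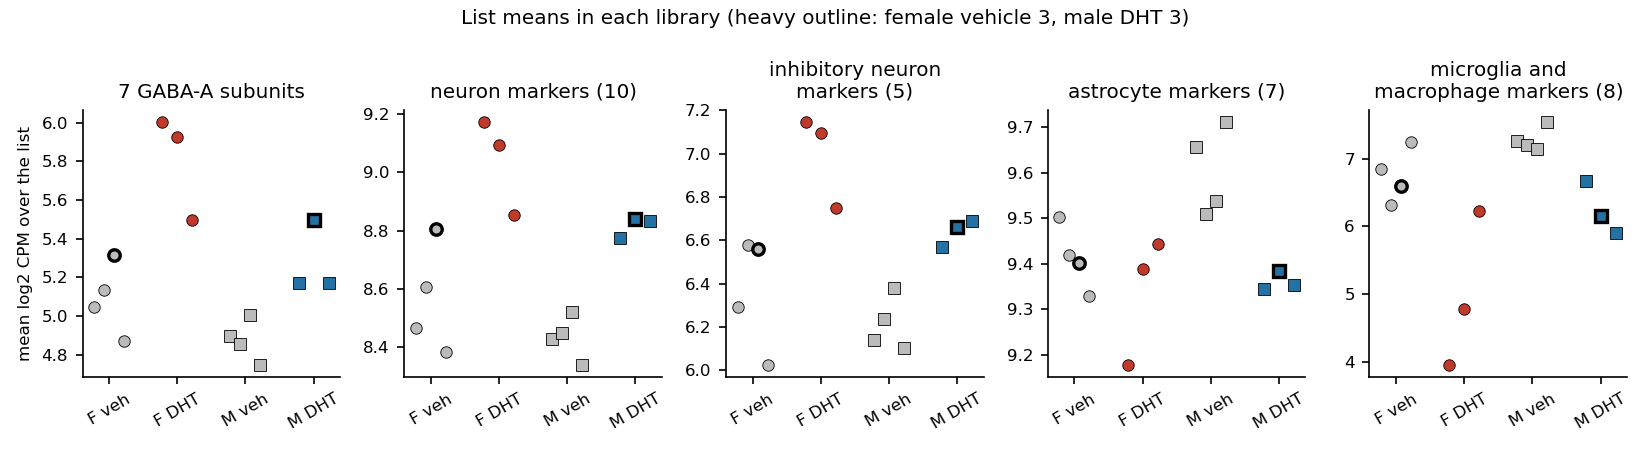
Mean log2 CPM of the 7 subunits and of 4 marker lists in each library; each panel has its own axis, which does not start at 0. In both sexes the DHT libraries lie above the vehicle libraries of the same sex for the subunits, the neuron markers and the inhibitory neuron markers, and below them for the microglia and macrophage markers.

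When each library was centred on the neuron markers, the median of all genes shifted to -0.49 in females and -0.39 in males, and that of the 7 subunits to 0.22 and 0.06. With this centring 1.39% of all genes were called higher and 64% lower in females, and 1.14% higher and 44% lower in males, so the scaling moved most genes down. Among the 7, 3 were called higher in females: Gabrb2 at 0.50 (limma adjusted p = 0.0401), Gabra5 at 0.24 (0.0141) and Gabra3 at 0.22 (0.0350). Gabra2 had 0.40 with adjusted p = 0.0504, and Gabrb1, Gabrg1 and Gabrg3 had values of 0.07, 0.11 and 0.16 that did not pass. In males none was higher, and Gabrb1 was called lower, at -0.28 (adjusted p = 0.0377), a reversed sign beside the 0.10 of the values as deposited; this is 1 of 7 where 44% of all genes were called lower. Centred on the astrocyte markers, all 7 were called higher in females and 5 of 7 in males, Gabra2 being the added one, where 18.1% and 29.7% of all genes were called higher. In males the mean log2 CPM of the astrocyte list was 9.51 to 9.71 in vehicle and 9.34 to 9.38 in DHT libraries. This centring therefore moved male values up, with a median of 0.24 over all genes and 2.3% called lower. In females the median was 0.06, with 19.3% called lower.

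**Figure D4:**
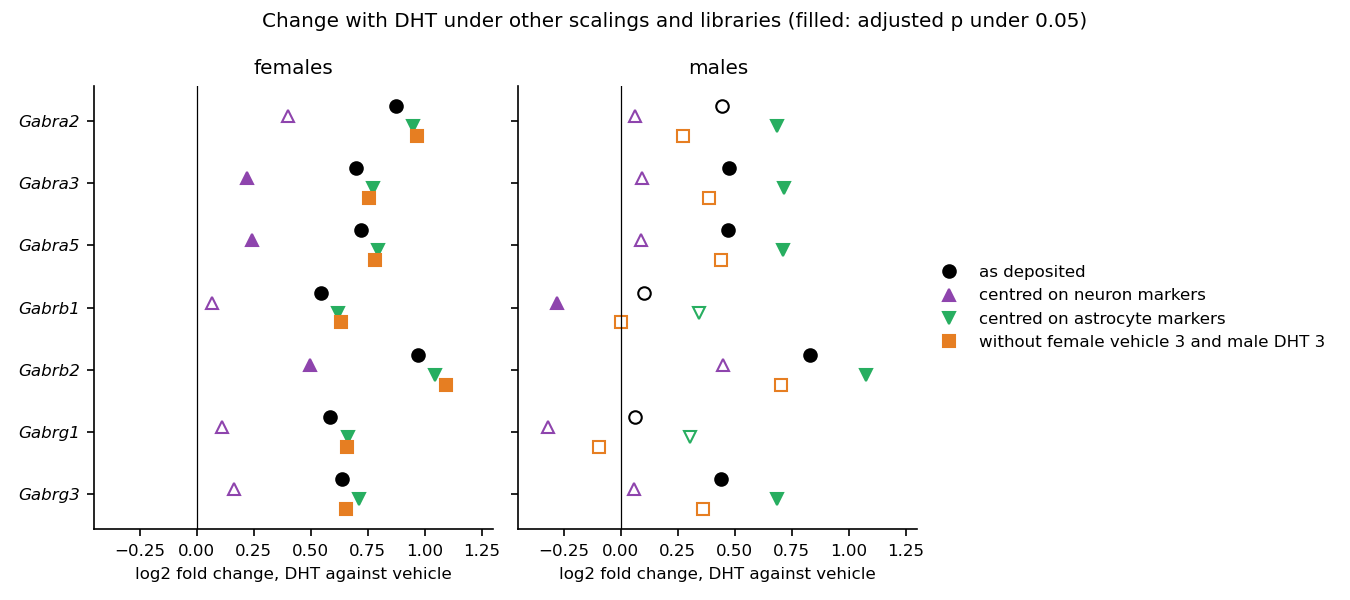
Log2 fold change with DHT of the 7 genes as deposited, centred on 10 neuron markers, centred on 7 astrocyte markers, and without female vehicle 3 and male DHT 3; filled symbols are called at an adjusted p under 0.05. Relative to neuron markers the female values shrink but stay above 0, and the male values of Gabrb1 and Gabrg1 turn negative, that of Gabrb1 called.

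The rest of the GABA system was described from lists chosen by role, to be read against the 19.8% of all genes called higher and 27.3% called lower in females and the 12.1% and 10.7% in males. Without female vehicle 3 the female counts of these lists were the same, except for the GABA-B genes. Of 8 other GABA-A subunit genes measured of 12 listed, 5 rose in females and 3 in males and none fell, with medians of 0.72 and 0.38. The male count was 1 without male DHT 3. Gabra4, the head-to-head neighbour of Gabrb1, had 0.09 in females and -0.16 in males (limma adjusted p = 0.701 and 0.554). Gabrq, the theta subunit, rose in females by 0.83 (adjusted p = 0.00630) and had 0.50 in males (0.0829). Gabrr2, a rho subunit best known from the retina, rose in females by 1.27 (adjusted p = 0.0280) and had -0.52 in males (0.395). Its female vehicle libraries had only 0.273 to 0.850 CPM, or 8 to 26 recovered reads, and its male vehicle libraries 0.877 to 1.53 CPM. The female DHT libraries had 1.06 to 1.40 CPM.

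Of 16 genes for anchoring and trafficking of the receptor, 9 rose and 1 fell in females, and 2 rose in males (0 without male DHT 3), with medians of 0.27 and 0.15, so the male share was close to that of all genes. Gphn, the scaffold protein gephyrin, rose by 0.27 in females (limma adjusted p = 0.0379) and had 0.27 in males (0.0631). Lhfpl4, an auxiliary protein needed for synaptic clustering of the receptor, rose by 0.41 in females (adjusted p = 0.00537). Gabarap, a receptor-associated protein that also serves in autophagy, fell by 0.72 in females (adjusted p = 0.00478).

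Of 8 genes for GABA synthesis, packaging, uptake and breakdown, 7 rose in females with a median of 0.59, and 1 rose and 1 fell in males with a median of 0.12. The male counts were close to the share of all genes, and without male DHT 3 neither gene was called. Gad1 and Gad2, the enzymes that make GABA, rose by 0.71 and 0.61 in females (limma adjusted p = 0.00531 and 0.00661), and Gad2 by 0.63 in males (0.0126). Slc6a11, a GABA transporter of astrocytes, rose by 0.93 in females (adjusted p = 0.00771) and had 0.07 in males (0.853). Slc6a13, a GABA transporter of the meninges, was lower in male DHT libraries by -1.01 on the log2 scale (adjusted p = 0.0215) and had 0.35 in females (0.310), and the interaction was not called (adjusted p = 0.0687). Slc6a13 was also called between the vehicle groups, at -0.99 for female minus male (limma adjusted p = 0.0260).

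Slc12a5, the chloride exporter KCC2 that keeps GABA inhibitory in mature neurons, and Slc12a2, the importer NKCC1, both rose in females, by 0.62 and 0.64 (limma adjusted p = 0.00545 and 0.0106), and had values of 0.16 and 0.33 in males that did not pass. Of 5 genes of the GABA-B receptor, which signals through G proteins, 4 rose and 1 fell in females (3 and 1 without female vehicle 3) and 2 rose in males (0 without male DHT 3). Gabbr1 and Gabbr2, its 2 subunits, rose by 0.48 and 0.68 in females (adjusted p = 0.00478 each), and Gabbr2 by 0.48 in males (0.0231).

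**Figure D5:**
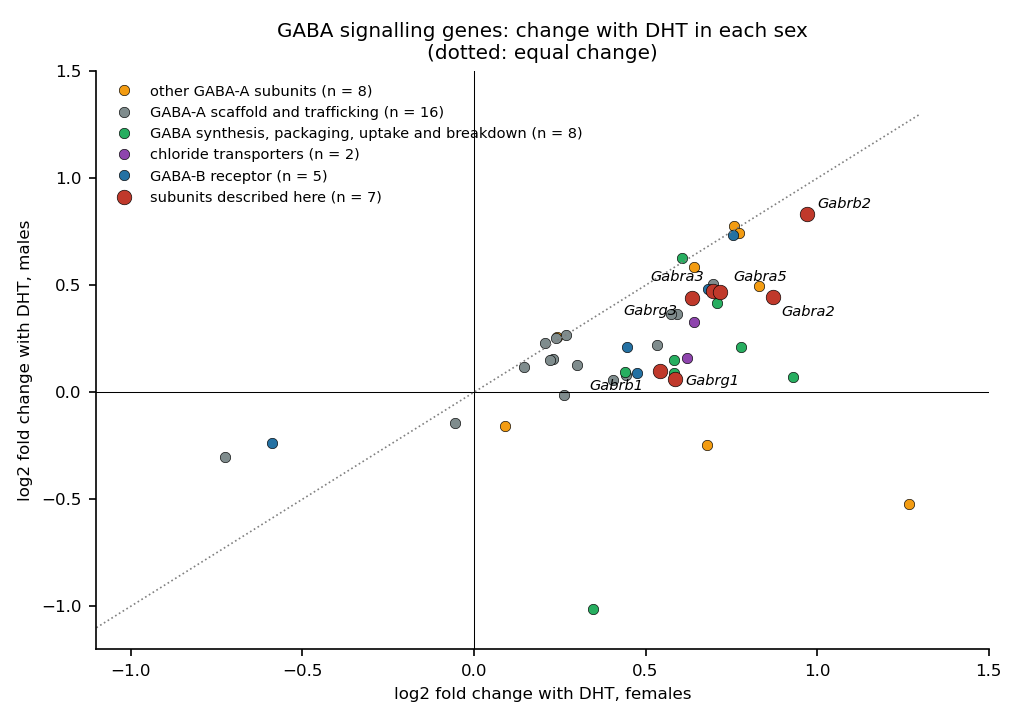
Log2 fold change with DHT in females (horizontal) and males (vertical) for the 7 subunits and 5 lists of GABA-related genes. Most genes lie to the right of 0, and the 7 subunits lie below the dotted line of equal change, although no difference between the sexes was called for any of them.

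Across the 14 libraries, with each sex centred on its own mean, the 7 genes varied together to different degrees. The closest pair was Gabra3 and Gabra5, on different chromosomes, with Pearson's r of 0.984, followed by Gabra3 and Gabrg3 (0.959). Gabrb1 and Gabrg1 had an r of 0.945, and the most distant pair was Gabrb2 and Gabrg1 (0.644). Without female vehicle 3 and male DHT 3 these pairs had an r of 0.987, 0.957, 0.945 and 0.583 over 12 libraries. These correlations include the treatment difference that all libraries share and are given without a test. Among 12993 genes whose mean log2 CPM reached 2, those nearest to Gabra3 included Ppp1r9a and Rims1 (r of 0.994 each), and those nearest to Gabra5 were Rims2, Sez6l and Ttc3 (0.994 each). For Gabrb2 they were Slc7a14, Kcna1 and Vwc2l (0.980 to 0.993), and for Gabrg3 they were Gria2, Adgrl3 and Scn2a (0.978 to 0.983). Gabra2 was nearest to Luzp2, Pou3f2 and Tceal1 (0.962 to 0.969), Gabrb1 to Ccdc148, Astn1 and Hlf (0.961 to 0.967), and Gabrg1 to Aph1b, Gabrb1 and Slc25a36 (0.944 to 0.955). Without those 2 libraries, an alternative added after the data were seen, the r of the named pairs ran from 0.943 to 0.997.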

How the data were processed

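RNA of spinal cords was sequenced as paired reads of 100 bp in 14 libraries. Per the methods, the authors used fastp for trimming and DRAGEN for mapping and counting on mm10, joined the female and male datasets by a normalization on housekeeping genes (RUVSeq), applied edgeR's normalization and filtered weakly expressed genes. They deposited log2 CPM values, which hold this normalization and may therefore differ from plain CPM. The 35 other columns hold identifiers and the authors' own fold changes and p-values and were not used. The log2 values were analysed by limma (version 3.58.1, R 4.3.3, moderated with a trend), with 4 groups in 1 model, no covariate and Benjamini-Hochberg adjustment over 16703 genes. Linear CPM came out as whole numbers of reads within 0.05 in 100% of low values in each library, and limma's voom on these recovered reads was an alternative. The recovered reads hold the same normalization, so voom on them was not a check on raw counts. The model was tested on simulated data. The 7 members and all lists were chosen with earlier results of these data known. Named genes are the 7 members, genes of the 5 GABA lists and the 3 genes most correlated with each member; Snap25, Tubb3 and the sex-linked genes were named as checks after their values were seen. Some other genes of the family and lists, and 1 of the most correlated genes, are not reported here by name. Figures and summaries were made in Python 3.11.15. Alternatives covered scaling, filter, pseudocount, weights, libraries and replicate block.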

Additional observations from a re-analysis of the deposited data

How the results depend on the processing

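The 7 female calls were unchanged under 13 of 14 alternatives of scaling, filter, pseudocount, model or library choice, the exception being centring on neuron markers (3 called), and stayed at 7 without any single library (range 7 to 7). The 4 male calls became 2 when centred on housekeeping genes and 1 (lower) when centred on neuron markers. They became 0 with a covariate for the missing direction and 0 when both male DHT 3 and female vehicle 3 were left out. They became 5 when centred on astrocyte markers, with array weights and with each sex fitted alone, Gabra2 being the added gene. Without single libraries they ranged from 0 to 4. The share of all genes called higher in males moved as well, from 12.1% to 8.29% with housekeeping centring, 5.14% with the covariate and 3.11% without both libraries. It was 18.4% with array weights, 14.3% with each sex alone and 29.7% with astrocyte centring. With neuron centring 44% of all genes were called lower in males. The interaction count of 0 became 2 with array weights, where 21.1% of all genes were called, and ranged from 0 to 2 without single libraries. The count between vehicle groups, 0, became 1 when centred on astrocyte markers and 2 with array weights, where 20.1% and 32.9% of all genes were called, and was 0 to 0 without single libraries. The male value of Gabrb1 reversed, to -0.28, when centred on neuron markers. The cause was not tested in any of these. With the column number as a replicate block the counts stayed at 7, 4, 0 and 0. Same-numbered libraries correlated in their deviations at -0.672 to 0.299, but with so few libraries this cannot tell whether the numbers pair samples. The described genes had 251 or more recovered reads in each library. Counting error was not compared with the spread between libraries.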

Other observations

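Within the chromosome 5 cluster, the level of Gabra2 relative to Gabra4 in the same library was higher with DHT in both sexes, although Gabra4 itself was not called. The difference of their log2 CPM values, Gabra2 minus Gabra4, was 0.65 to 1.45 in the 4 female vehicle libraries and 1.52 to 2.23 in the 3 female DHT libraries, and 0.80 to 0.97 in the 4 male vehicle libraries and 1.34 to 1.63 in the 3 male DHT libraries. In the same cluster, Gabrb1 minus Gabra4 overlapped in both sexes. It was 2.05 to 2.86 in female vehicle and 2.70 to 3.05 in female DHT libraries, and 2.35 to 2.55 in male vehicle and 2.53 to 2.84 in male DHT libraries. Between the beta subunits, Gabrb2 minus Gabrb1 was -2.69 to -2.15 in female vehicle and -2.08 to -2.01 in female DHT libraries, and -3.55 to -2.37 in male vehicle and -2.35 to -2.20 in male DHT libraries. Between the gamma subunits, Gabrg3 minus Gabrg1 was -0.79 to -0.28 in female vehicle and -0.65 to -0.38 in female DHT libraries, so these overlapped, and -0.998 to -0.678 in male vehicle against -0.57 to -0.32 in male DHT libraries. Without female vehicle 3 and male DHT 3 the ranges of the remaining libraries were the same for Gabra2 minus Gabra4, and the male DHT ranges became -2.35 to -2.23 for the beta and -0.38 to -0.32 for the gamma subunits. For Gabrb1 minus Gabra4 the male DHT range became 2.81 to 2.84, above the male vehicle range, while the female groups still overlapped. Between the alpha subunits, Gabra3 minus Gabra2 and Gabra5 minus Gabra2 overlapped between vehicle and DHT libraries in both sexes. All these pairs were chosen after the values were seen and are given as values, without a test. The share of all gene pairs that separate the groups was not computed.

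Markers of sensory ganglion neurons differed between libraries of the same group. Their mean log2 CPM was 1.51 in female vehicle 3, 1.89 in female DHT 3 and 1.92 in male DHT 4, 0.11 in male DHT 3, and between -1.32 and -0.82 in the other libraries. None of the 6 genes was called in either sex by limma, and 1 was in females without female vehicle 3. Female vehicle 3 had the highest mean level of the 7 subunits among the vehicle libraries of its sex, and female DHT 3 the lowest among the DHT libraries.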
